A study of Mus musculus with 4 samples.

Results

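The 44 genes described here encode proteins that mark, license and fire the origins of DNA replication and that copy DNA at the fork. They were chosen by name from the known parts of this machinery, when earlier results of these data had been seen. They were 44 of the 39179 mouse genes counted. B16F1 is an established mouse melanoma cell line. Poly(A) RNA was sequenced from parental B16F1 control cells (n = 2, replicates 1 and 3) and from tumor repopulating cells (TRCs, n = 2, replicates 1 and 3), which are cells of spheroids that grew from single B16F1 cells in soft 3D fibrin gels of 90 Pa stiffness and were isolated on day 5. Both groups came from the same line, and the sources used here name no transgene, deletion or drug in either. Parental control cells were depicted in 2D culture, the usual form for this line. Whether samples 1 and 3 of a group were separate cultures is not given in the sources used here, so the p-values may measure only technical spread. TRCs are the cells that survived and grew in the gel, so selection and culture form cannot be told apart.

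Before S phase, the origin recognition complex (ORC) and *Cdc6* mark an origin, and *Cdt1* brings the MCM helicase ring to it in an inactive form, a step called licensing. Geminin (*Gmnn*) blocks *Cdt1* once DNA synthesis has begun, so that an origin is licensed only once per cycle. The kinase formed by *Cdc7* and *Dbf4*, together with cyclin-dependent kinases, then lets *Cdc45* and the GINS proteins join the ring as the CMG helicase, and the fork starts. Polymerase alpha-primase lays down primers, replication factor C loads the sliding clamp *Pcna*, and polymerases delta and epsilon extend the new strands. Many of these genes are transcribed under E2F factors in cells that enter S phase, and high levels of their products are a familiar feature of dividing tumor cells, melanoma included.

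Replication genes were lower in TRCs than in parental B16F1 control cells. Of the 44 genes, 28 (63.6%) were lower in TRCs at a false discovery rate (FDR) under 0.05 in edgeR's exact test, adjusted over all 11483 genes tested, where 7.05% of those genes were called lower, and none was higher, where 8.81% were called higher and 15.9% were called in either direction. At an unadjusted p under 0.05, 32 of the 44 genes were lower and 0 higher, against 13.2% and 14.8% of all genes tested. The log2 fold change, TRCs relative to control, was negative for 43 of the 44 genes, against 49.7% of all genes, with a median of −0.81 and a range from −1.33 for *Cdt1* to 0.31 for *Orc3*. The median over all genes tested was 0.0034. Among the genes lower in TRCs were all 6 subunits of the MCM2-7 helicase core and the licensing factors *Cdt1* and *Cdc6*. So were 3 of the 4 ORC subunits in the list of 44.

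All 44 genes passed the filter on low counts (at least 1 CPM, the count scaled to the library size, in at least 2 libraries), with between 379 and 26245 raw counts per library. Of the 7815 genes tested whose mean CPM lay in the range of the 44 genes, 8.52% were called lower in TRCs. In bulk RNA, fewer cells in S phase and less of each RNA per cell cannot be told apart. With 2 libraries on each side, no exact permutation test (two-sided) can go below p = 0.333, so each FDR rests on the model fitted across genes.

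**Figure D1:**
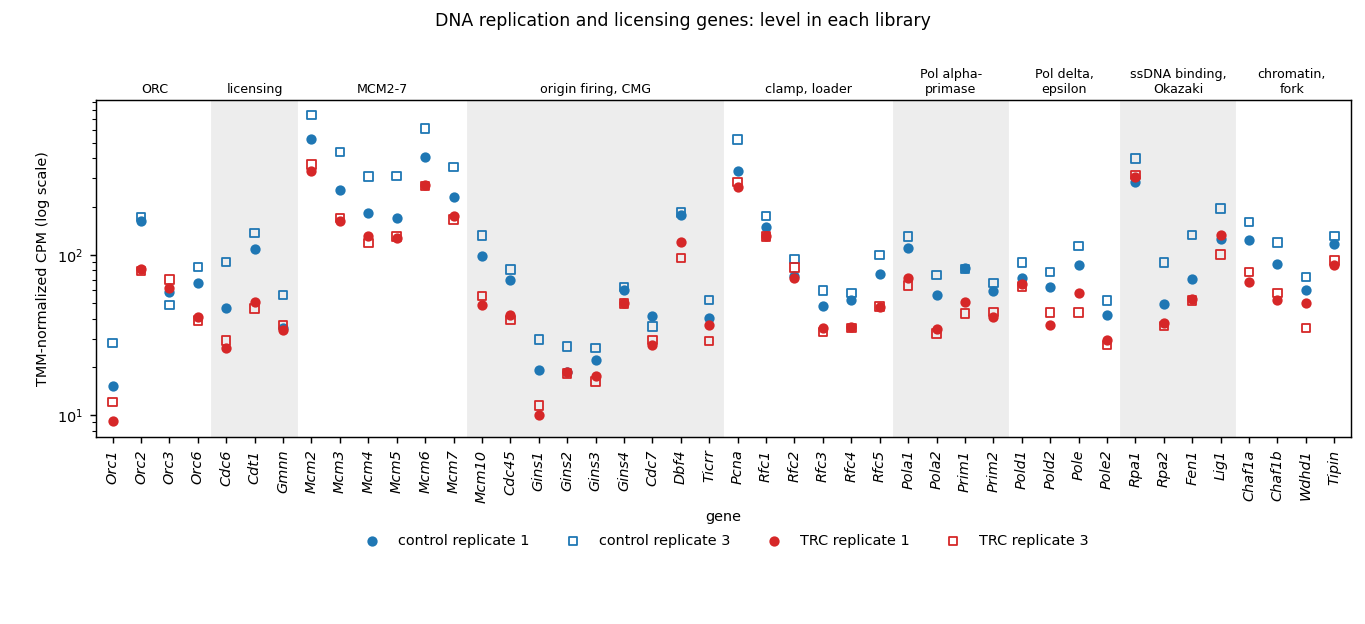
TMM-normalized CPM (log scale) of each of the 44 genes, grouped by role, in control replicates 1 and 3 and TRC replicates 1 and 3, with 1 point per library. Both TRC points lie below both control points for 39 genes, and both lie above for *Orc3*, at 61.8 and 70.3 CPM against 58.3 and 48.4 CPM in control cells.

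The levels in single libraries showed the same shift with an uneven size. Levels are TMM-normalized CPM, in which counts are divided by the scaled library size. Control replicates 1 and 3 held 5032 and 7005 CPM summed over the 44 genes, and TRC replicates 1 and 3 held 3636 and 3617 CPM. The TRC libraries were close to each other, whereas control replicate 1 held 71.8% of the summed level of control replicate 3. Both TRC libraries were below both control libraries for 39 of the 44 genes, against 30.4% of all genes tested, and above both for 1 gene, against 30.2%. The ranges overlapped for *Gmnn*, *Rfc2*, *Rpa1* and *Lig1*. For 24 genes the groups, taken at their nearest libraries, were also further apart than the replicates of either group, with TRCs lower, against 14.1% of all genes tested.

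Compared with each control library in turn, TRCs were further below control replicate 3. The median difference in log2(CPM + 0.5) over the 44 genes was −0.54 for TRC replicate 1 and −0.53 for TRC replicate 3 against control replicate 1, with 41 and 40 of the genes below 0. Against control replicate 3 the medians were −0.95 and −1.01, with 43 of the genes below 0 in both. Of all 11483 genes tested, TRC replicates 1 and 3 were below control replicate 1 for 5773 and 5836. They were below control replicate 3 for 5694 and 5646. The 2 control libraries themselves differed by a median of −0.37 (control replicate 1 minus control replicate 3). Of the 44 genes, 41 were lower in control replicate 1, against 5791 of all 11483 genes tested. The 2 TRC libraries differed by a median of 0.028. The distance between replicates was larger in control cells than in TRCs for 40 of the 44 genes (90.9%), against 55.4% of all genes tested. What set the control libraries apart was not tested.

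**Figure D2:**
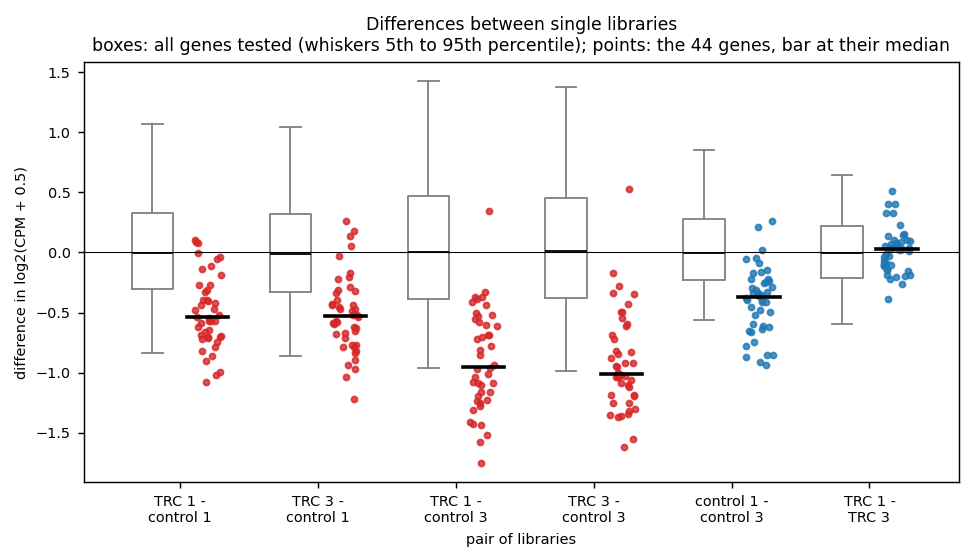
Difference in log2(CPM + 0.5) between each pair of single libraries, with boxes for all genes tested (whiskers from the 5th to the 95th percentile), points for the 44 genes and a bar at their median. The bars for TRC libraries against control replicate 1 lie near −0.5 and those against control replicate 3 near −1, while the bar for the control libraries against each other lies at −0.37.

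The number of genes called depended on control replicate 3 and on the test. Without that library, 6 of the 44 genes were called lower (*Cdt1*, *Orc2*, *Mcm10*, *Cdc45*, *Prim1* and *Chaf1a*), and the median log2 fold change of the 44 was −0.55. Without TRC replicate 1 or TRC replicate 3 the counts were 11 and 8, and edgeR's quasi-likelihood test with all 4 libraries called 17, losing *Orc1*, *Mcm2*, *Mcm4*, *Mcm5*, *Mcm6*, *Mcm7*, *Rfc3*, *Rfc4*, *Pole2*, *Rpa2* and *Fen1*. *Cdt1*, *Orc2* and *Mcm10* were called lower in all 14 settings that were tested. Calls over all genes fell with the test as well. Of all 11483 genes tested, the quasi-likelihood test called 487 lower, where the exact test called 810. Leaving out a library also changed the number of all genes called, as given in the closing section.

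The promoters of these genes were examined because many replication genes are known E2F targets and 28 of the genes were lower together. RefSeq promoters (250 bases before to 50 after each start, GRCm38.p6) were found for 35 of the 44 genes. The E2F letters TTTCCCGC, TTTGGCGC, TTTCGCGC or TTTGCCGC, on either strand, were present in 14 of these 35 genes (40%), in 4.95% of the genes tested with a promoter, and in 2.6% of all genes with one. They were present in 10 of the 25 genes called lower that had a promoter (40%) and in 4 of the 10 not called (40%). Of all 16 genes not called, 11 had both TRC libraries below both control libraries, against 30.4% of all genes tested. The genes not called were therefore not taken as an unchanged group. Whether the letters go with lower levels in TRCs was not tested. The CCAAT box was held by 60% of the replication genes and 43.2% of the genes tested, the E-box CACGTG by 17.1% and 12.3%, and the cell cycle element TTTGAA or TTTAAA (CHR) by 28.6% and 22.1%. A match of letters is a description of the sequence and not a binding site.

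Sequences of 180 bases directly upstream of the start are shown for 5 genes called lower in TRCs, 5′ to 3′ on the gene's strand, with the E2F letters in capitals. *Mcm6* (chr1:128359706-128359885, minus strand) had the most matches in this window, 3, and *Mcm5* (chr8:75109329-75109508, plus strand) had a pair on opposite strands that share bases, as did *Mcm6* at the first run of capitals. *Pola1* (chrX:93632156-93632335, minus strand) had 1. *Mcm10* (chr2:5012792-5012971, minus strand) and *Cdt1* (chr8:122567835-122568014, plus strand) are shown because they were called lower in every setting tested and have no such letters upstream of the start. *Cdt1* has a match 33 bases after the start, outside the printed window. *Orc2* also meets these conditions and is not shown.
Mcm6: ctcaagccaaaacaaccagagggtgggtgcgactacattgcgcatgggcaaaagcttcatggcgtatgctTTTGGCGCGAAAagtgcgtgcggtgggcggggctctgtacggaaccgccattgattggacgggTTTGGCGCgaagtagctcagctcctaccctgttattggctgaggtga
Mcm5: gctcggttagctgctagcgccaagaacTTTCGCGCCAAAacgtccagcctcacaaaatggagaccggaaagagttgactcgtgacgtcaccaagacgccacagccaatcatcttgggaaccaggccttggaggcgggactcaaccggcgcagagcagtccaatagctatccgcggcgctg
Pola1: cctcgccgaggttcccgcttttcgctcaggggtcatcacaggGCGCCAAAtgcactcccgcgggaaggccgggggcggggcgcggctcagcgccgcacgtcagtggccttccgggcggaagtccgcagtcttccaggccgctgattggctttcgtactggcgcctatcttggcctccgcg
Mcm10: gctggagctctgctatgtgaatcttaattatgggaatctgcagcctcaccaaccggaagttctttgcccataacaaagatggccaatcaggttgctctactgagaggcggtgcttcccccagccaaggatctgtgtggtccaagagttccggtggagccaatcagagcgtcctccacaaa
Cdt1: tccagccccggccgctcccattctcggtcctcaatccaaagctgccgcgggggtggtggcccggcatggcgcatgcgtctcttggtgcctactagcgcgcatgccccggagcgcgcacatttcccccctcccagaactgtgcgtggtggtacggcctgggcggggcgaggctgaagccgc

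ORC is the platform on which licensing begins, and 3 of the 4 subunits examined were lower in TRCs while *Orc3* was not. Values are CPM in control replicates 1 and 3, set against those in TRC replicates 1 and 3, and parentheses hold the log2 fold change ± SE, with the SE from DESeq2. *Orc2*, a core subunit (ENSMUSG00000026037, GRCm38 chr1:58462771-58505109, minus strand), had 162 and 172 CPM in control cells and 81.1 and 79.0 CPM in TRCs, with a log2 fold change of −1.06 ± 0.19 and FDR = 8.37e-05. The replicates of *Orc2* lay close together in both groups, and the groups were far apart. *Orc6*, the smallest subunit, had 66.6 and 84.1 CPM in control cells and 40.6 and 38.9 CPM in TRCs (−0.92 ± 0.23, FDR = 0.00148). *Orc1*, an ATP-binding subunit whose level changes through the cycle, had 15.2 and 28.2 against 9.12 and 12.1 CPM (−1.03 ± 0.36, FDR = 0.0415). For *Orc1* the control replicates were further apart than the groups.

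*Orc3* (ENSMUSG00000040044), the core subunit that binds *Orc2* directly, had 58.3 and 48.4 CPM in control cells and 61.8 and 70.3 CPM in TRCs. Both TRC libraries were above both control libraries, but the log2 fold change of 0.31 ± 0.22 did not pass the test (FDR = 0.397). *Orc3* was the one gene of the 44 with a positive log2 fold change. The ORC subunits outside the 44, *Orc4* (−0.28 ± 0.19, FDR = 0.417) and *Orc5* (−0.43 ± 0.23, FDR = 0.236), did not pass the test either. The log2 ratio of *Orc2* to *Orc3* within a library was 1.48 and 1.83 in control cells and 0.39 and 0.17 in TRCs, a pair chosen after the values were seen. This ratio does not depend on the scaling between libraries.

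Of the 9 role groups, the licensing factors and their inhibitor had the lowest median log2 fold change, −1.30 over 3 genes, and 2 of the 3 were called lower. *Cdt1*, which brings the MCM ring to the origin (ENSMUSG00000006585, chr8:122568015-122573554, plus strand), had 108 and 137 CPM in control cells and 51.0 and 46.1 CPM in TRCs (−1.33 ± 0.22, FDR = 1.15e-06). *Cdc6*, the ATPase that works with ORC to load the ring, had 46.8 and 90.3 against 26.4 and 29.1 CPM (−1.30 ± 0.32, FDR = 0.000394). The groups were well separated for *Cdt1*, whereas the control replicates of *Cdc6* lay −0.94 apart on the log2 scale (replicate 1 minus replicate 3). *Gmnn*, which encodes the inhibitor of *Cdt1*, had 35.1 and 56.0 against 33.8 and 36.4 CPM (−0.38 ± 0.28, FDR = 0.375), with overlapping ranges. The log2 ratio of *Cdt1* to *Gmnn* was 1.62 and 1.29 in control cells and 0.59 and 0.34 in TRCs, again a pair chosen after the values were seen.

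**Figure D3:**
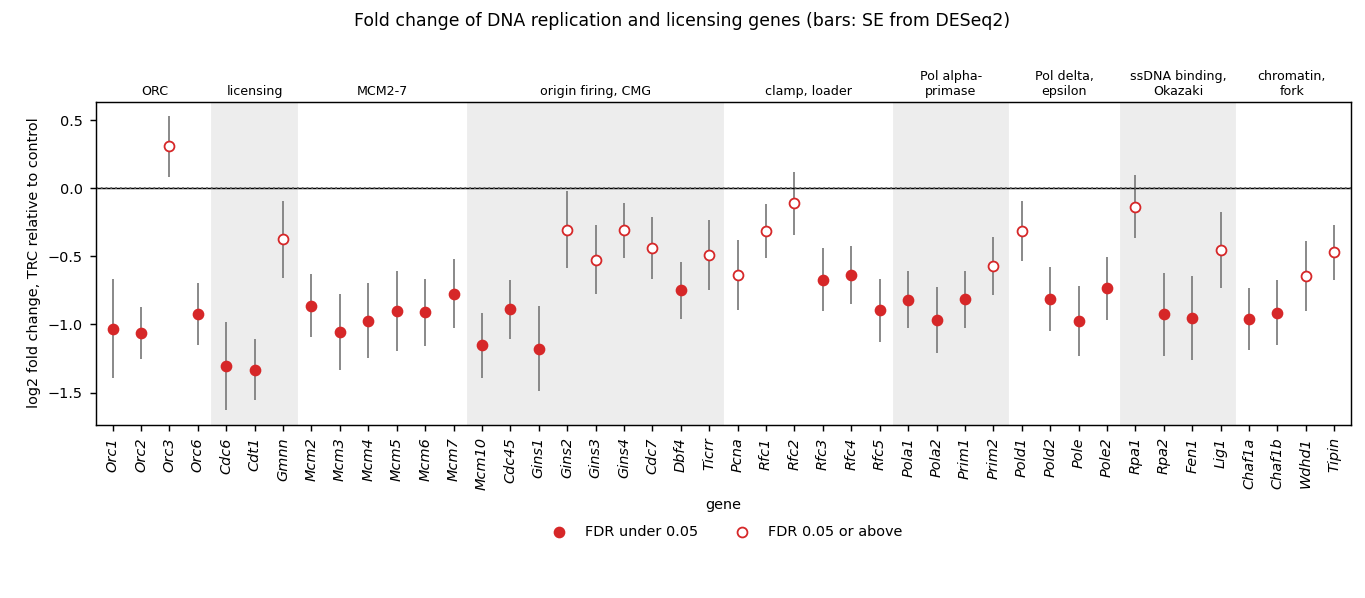
Log2 fold change (TRC relative to control) of the 44 genes by role, with bars for the standard error from DESeq2 and filled points for FDR under 0.05. All points but that of *Orc3* lie below 0, and the lowest are *Cdt1* at −1.33 and *Cdc6* at −1.30.

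The MCM2-7 core is the motor of the replicative helicase, and all 6 subunits were lower in TRCs, with log2 fold changes from −1.06 to −0.77. *Mcm3* had the smallest p of the 6, with 254 and 437 CPM in control cells and 162 and 170.2 CPM in TRCs (−1.06 ± 0.28, FDR = 0.00227). *Mcm6*, the most abundant subunit per exon length in both groups, had 406 and 613 against 274 and 269 CPM (−0.91 ± 0.25, FDR = 0.00568). *Mcm4* had 183 and 307 against 131 and 119 CPM (−0.97 ± 0.28, FDR = 0.00504). For these 3 subunits, control replicate 1 lay between control replicate 3 and the TRCs. *Mcm2*, with 526 and 744 against 332 and 367 CPM (−0.86 ± 0.23, FDR = 0.0074), was the only subunit whose groups were further apart than either pair of replicates. *Mcm5* had 171 and 309 against 127 and 129.8 CPM (−0.90 ± 0.29, FDR = 0.0149). *Mcm7* had 229.8 and 353 against 175 and 166 CPM (−0.77 ± 0.25, FDR = 0.0222).

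The 6 subunits were lower together. Their summed level was 1771 and 2764 CPM in control cells and 1201 and 1220 CPM in TRCs, so TRC replicate 1 held 67.9% of control replicate 1 and 43.5% of control replicate 3. The quasi-likelihood test called 1 of the 6 subunits, *Mcm3*, where the exact test called 6. *Mcm7* also hosts 2 microRNA genes on its own strand, and 4.32% of the 100-base windows of its transcripts occur in transcripts of other genes, so its counts are less certain than those of the other subunits.

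Genes of origin firing and helicase assembly were lower in part, with 4 of 9 called and a median log2 fold change of −0.52. *Mcm10*, which helps the assembled helicase to start (ENSMUSG00000026669, chr2:4989714-5012791, minus strand), had 98.7 and 132 CPM in control cells and 48.4 and 55.1 CPM in TRCs (−1.15 ± 0.24, FDR = 6.82e-05). *Cdc45*, the subunit that completes the CMG helicase, had 69.7 and 81.2 against 42.2 and 39.3 CPM (−0.89 ± 0.22, FDR = 0.00172). *Dbf4*, the activating subunit of the *Cdc7* kinase, had 178 and 184 against 119.9 and 95.6 CPM (−0.75 ± 0.21, FDR = 0.0145). In each of these 3 genes the groups were further apart than the replicates. *Cdc7*, the kinase itself, had 41.4 and 35.7 against 27.4 and 29.4 CPM (−0.44 ± 0.23, FDR = 0.237) and did not pass the test.

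The 4 GINS subunits form a single complex in the cell, and 1 of the 4 passed the test. *Gins1* had 19.1 and 29.5 CPM in control cells and 9.98 and 11.5 CPM in TRCs (−1.18 ± 0.31, FDR = 0.00692) and was called lower. *Gins4* had 60.6 and 62.9 against 50.1 and 49.5 CPM (−0.31 ± 0.20, FDR = 0.371). *Gins3* (−0.52, FDR = 0.241) and *Gins2* (−0.30, FDR = 0.569) also did not pass. All 4 had both TRC libraries below both control libraries, although for *Gins2* control replicate 1 and TRC replicate 1 were nearly equal, at 18.6 and 18.5 CPM. The log2 ratio of *Gins1* to *Gins4*, a pair chosen after the values were seen, was −1.67 and −1.09 in control cells and −2.33 and −2.11 in TRCs. *Ticrr*, which encodes treslin, a factor that brings *Cdc45* to the origin, had 40.4 and 52.2 against 36.7 and 29.1 CPM (−0.49 ± 0.26, FDR = 0.188).

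Of the sliding clamp and its loader, 3 of 6 genes were lower in TRCs. *Pcna*, the clamp and the most abundant of the 44 genes per exon length, had 332 and 523 CPM in control cells and 266 and 284 CPM in TRCs. Both TRC libraries were below both control libraries, but control replicate 1 was nearer to the TRCs than to control replicate 3, and the log2 fold change of −0.64 ± 0.26 missed the threshold (FDR = 0.0804). A pseudogene, *Pcna-ps2*, shares 10.1% of the 100-base windows of *Pcna* transcripts, so its counts are uncertain. Of the loader, *Rfc5* had 75.8 and 99.8 against 46.9 and 47.4 CPM (−0.90 ± 0.23, FDR = 0.00221), *Rfc3* had 48.2 and 59.9 against 34.7 and 33.1 CPM (−0.67 ± 0.23, FDR = 0.035), and *Rfc4* had 52.0 and 57.6 against 35.5 and 34.8 CPM (−0.64 ± 0.21, FDR = 0.0388). These 3 small subunits had groups further apart than their replicates. The large subunit *Rfc1* (−0.31 ± 0.20, FDR = 0.381) and *Rfc2* did not pass the test. *Rfc2* had 73.5 and 93.9 against 71.5 and 83.4 CPM, with overlapping ranges (−0.11 ± 0.23, FDR = 0.81). The log2 ratio of *Rfc5* to *Rfc2*, also chosen after the values were seen, was 0.045 and 0.087 in control cells and −0.61 and −0.81 in TRCs.

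Polymerase alpha-primase, which starts every new strand, had 3 of 4 subunits lower in TRCs. *Pola2*, the accessory subunit, had 56.0 and 74.6 CPM in control cells and 34.4 and 32.3 CPM in TRCs (−0.97 ± 0.24, FDR = 0.00134). *Prim1*, the catalytic primase, had 82.8 and 81.8 against 50.5 and 43.1 CPM (−0.82 ± 0.21, FDR = 0.00378). *Pola1*, the catalytic polymerase subunit, had 110.1 and 129.7 against 71.6 and 64.5 CPM (−0.82 ± 0.21, FDR = 0.00458). The control replicates of *Prim1* were nearly equal, and all 4 genes of the complex had groups further apart than their replicates. *Prim2*, the large primase subunit, had 59.5 and 66.9 against 40.8 and 44.1 CPM, and its log2 fold change of −0.57 ± 0.21 just missed the threshold (FDR = 0.0639).

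Polymerases delta and epsilon copy the bulk of the genome, and 3 of their 4 subunits among the 44 genes were lower in TRCs. *Pole*, the catalytic subunit of polymerase epsilon, had 86.3 and 114 CPM in control cells and 58.0 and 43.7 CPM in TRCs (−0.98 ± 0.25, FDR = 0.00168). *Pole2*, its second subunit, had 42.4 and 52.0 against 29.3 and 27.3 CPM (−0.74 ± 0.23, FDR = 0.0235). The gene *Gm49384* shares 4.9% of the 100-base windows of *Pole2* transcripts, so the counts of *Pole2* are less certain. Of polymerase delta, *Pold2*, the accessory subunit, had 63.2 and 77.8 against 36.4 and 43.8 CPM (−0.81 ± 0.24, FDR = 0.00693). In these 3 genes the groups were further apart than the replicates. *Pold1*, the catalytic subunit of polymerase delta, had 71.2 and 89.5 against 65.9 and 63.3 CPM (−0.31 ± 0.22, FDR = 0.38) and did not pass the test. Outside the 44, *Pold3* (−0.066 ± 0.23, FDR = 0.892), *Pole3* (−0.30 ± 0.23, FDR = 0.429) and *Pole4* (−0.28 ± 0.22, FDR = 0.475) did not pass it either.

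Of the genes of single-strand binding and Okazaki fragment maturation, 2 of 4 were lower in TRCs. *Fen1*, the flap endonuclease, had 70.2 and 133 CPM in control cells and 53.1 and 51.7 CPM in TRCs (−0.95 ± 0.31, FDR = 0.0105). *Rpa2*, the middle subunit of the single-strand binding protein RPA, had 49.6 and 89.7 against 37.3 and 36.0 CPM (−0.93 ± 0.30, FDR = 0.012). Both were called lower, but in both the control replicates were far apart, and the quasi-likelihood test called neither. *Rpa1*, the large subunit of RPA, had 286 and 398 against 308 and 315 CPM (−0.14 ± 0.23, FDR = 0.772). *Lig1*, the ligase that seals the fragments, had 125 and 195 against 133 and 101 CPM (−0.45 ± 0.28, FDR = 0.267). The ranges of *Rpa1* and *Lig1* overlapped between the groups. The log2 ratio of *Rpa2* to *Rpa1*, a pair chosen after the values were seen, was −2.53 and −2.15 in control cells and −3.04 and −3.13 in TRCs.

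Chromatin assembly factor 1 puts histones onto new DNA, and both of its subunits examined were lower in TRCs. *Chaf1a* had 124 and 161 CPM in control cells and 67.8 and 78.2 CPM in TRCs (−0.96 ± 0.23, FDR = 0.00121). *Chaf1b* had 87.3 and 119.5 against 51.9 and 57.9 CPM (−0.91 ± 0.24, FDR = 0.00258). For both genes the groups were further apart than the replicates. *Wdhd1*, which links the helicase to polymerase alpha, had 60.5 and 72.5 against 50.1 and 34.9 CPM (−0.64 ± 0.26, FDR = 0.0591). *Tipin*, a partner of Timeless that protects the fork, had 116 and 131 against 86.1 and 92.3 CPM (−0.47 ± 0.20, FDR = 0.138). Neither of these 2 passed the test, although both TRC libraries were below both control libraries.

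The ratios within complexes were computed for 8 pairs, all chosen after the values were seen, and in the remaining 3 pairs the mean log2 ratio differed less between TRCs and control cells. The difference (TRCs minus control) was −0.51 for *Pold2* to *Pold1*, −0.26 for *Mcm3* to *Mcm7* and 0.32 for *Cdc7* to *Dbf4*, against −1.37 for *Orc2* to *Orc3*, −0.99 for *Cdt1* to *Gmnn*, −0.84 for *Gins1* to *Gins4*, −0.78 for *Rfc5* to *Rfc2* and −0.75 for *Rpa2* to *Rpa1*.

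The 16 genes that did not pass the test had log2 fold changes from −0.64 for *Wdhd1* to 0.31 for *Orc3*, while the 28 called lower ranged from −1.33 to −0.64. Of the 16, 11 had both TRC libraries below both control libraries, against 30.4% of all genes tested. A missed threshold with 2 libraries per group does not show that these genes were alike in TRCs and control cells.

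Levels can be compared between genes only per exon length, given here as CPM per kb of exons. *Pcna* had the highest mean level in both groups, at 178 in control cells and 115 in TRCs, and *Mcm6* the second highest, at 109 and 58.1. In control cells 6 of the 9 highest of the 44 genes were MCM2-7 subunits, and *Mcm3* moved from rank 3 in control cells to rank 6 in TRCs. *Rpa1* moved from rank 8 to rank 3 with levels of 61.3 and 55.9, and *Orc3* from rank 40 to rank 27 with levels of 8.77 and 10.8. *Cdt1* moved from rank 13 to rank 19 with levels of 39.0 and 15.5. In control cells the mean level of *Cdt1* was above that of its inhibitor *Gmnn*, at 31.1, and in TRCs it was below, at 23.9 for *Gmnn*. This change of order rests on the exon lengths used, 3140 bases for *Cdt1* and 1465 for *Gmnn*. In CPM, *Cdt1* was above *Gmnn* in every library. These rank changes are descriptions of 2 libraries per group.

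**Figure D4:**
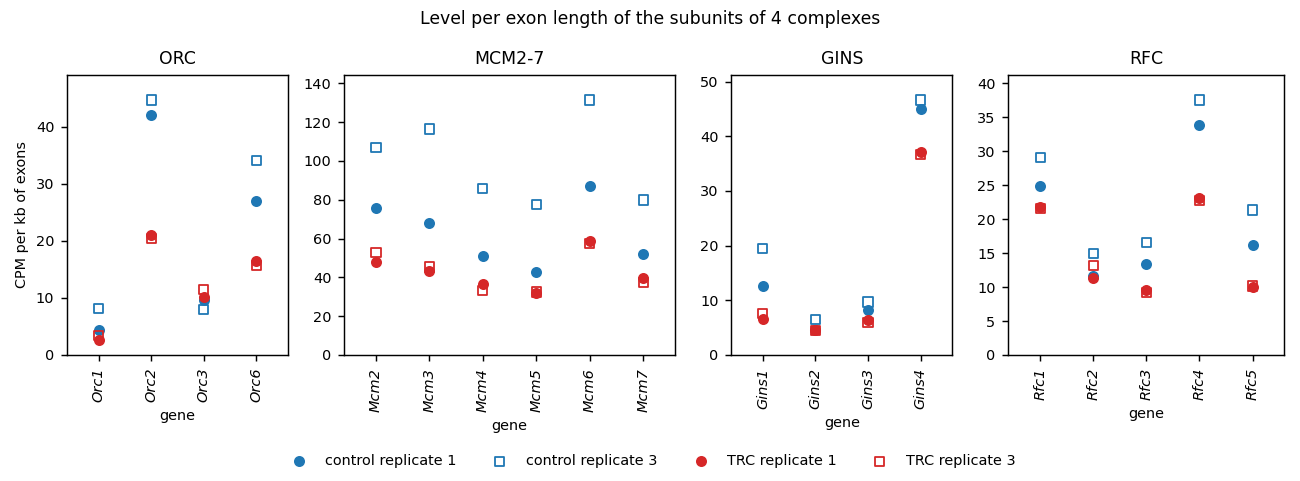
CPM per kb of exons of the subunits of 4 complexes in each of the 4 libraries, 1 point per library. Within ORC, *Orc2* fell from means of 43.4 in control cells to 20.8 in TRCs, while *Orc3* had means of 8.77 and 10.8.

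Replication genes outside the 44 were also lower in TRCs. A list of 40 further genes, such as those of the fork protection complex and of replication-coupled chromatin, had 39 tested, of which 15 (38.5%) were lower in TRCs and 0 higher, against 7.05% and 8.81% of all genes tested. All 39 had a negative log2 fold change, with a median of −0.46. *Dtl*, which targets *Cdt1* for degradation in S phase, had 94.3 and 134 CPM in control cells and 54.8 and 53.0 CPM in TRCs (−1.08 ± 0.24, FDR = 0.000305). *Uhrf1*, which brings DNA methylation to new strands, had 331 and 556 against 186 and 199 CPM (−1.21 ± 0.27, FDR = 0.000326). *Tonsl*, a reader of new histones, had 29.1 and 40.9 against 16.4 and 13.7 CPM (−1.21 ± 0.28, FDR = 0.000921). These 3 genes had both TRC libraries below both control libraries. *Timeless*, the partner of *Tipin*, had 58.4 and 65.1 against 33.3 and 31.1 CPM (−0.94 ± 0.22, FDR = 0.000966), and *Clspn*, which encodes claspin, had 68.6 and 109 against 45.6 and 39.9 CPM (−1.05 ± 0.28, FDR = 0.00117). The count called lower was 5 without control replicate 3, 7 without TRC replicate 1 and 3 without TRC replicate 3.

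Of 20 regulators of S-phase entry, 6 (30%) were lower in TRCs and 1 was higher, against 7.05% and 8.81% of all genes tested, with a median log2 fold change of −0.55. *Fbxo5*, which encodes the anaphase-promoting complex inhibitor Emi1, had 59.0 and 63.8 CPM in control cells and 32.9 and 28.0 CPM in TRCs (−1.01 ± 0.22, FDR = 0.000408). *E2f7*, a repressor of the E2F family, had 23.6 and 38.5 against 12.8 and 12.0 CPM (−1.32 ± 0.31, FDR = 0.00115), and its relative *E2f8* had 56.3 and 92.5 against 38.5 and 36.8 CPM (−0.98 ± 0.28, FDR = 0.00355). *Cdc25a*, the phosphatase that activates cyclin-dependent kinases, had a log2 fold change of −0.89 ± 0.29 (FDR = 0.013) and *E2f6* of −0.73 ± 0.24 (FDR = 0.0233). *Rb1*, the retinoblastoma protein that holds activating E2F factors in check, was higher in TRCs, with 37.5 and 22.5 CPM in control cells and 53.3 and 51.2 CPM in TRCs (0.80 ± 0.29, FDR = 0.029). For *Rb1* the control replicates were further apart than the groups at their nearest libraries, and the quasi-likelihood test did not call it (FDR = 0.0818). The count called lower was 1 without control replicate 3, 2 without TRC replicate 1 and 0 without TRC replicate 3.

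Genes of nucleotide synthesis and of mitosis were set beside the replication genes. Of 22 nucleotide synthesis genes, 12 (54.5%) were lower in TRCs and 0 higher, against 7.05% and 8.81% of all genes tested, with a median log2 fold change of −0.81. *Cad*, which encodes the first enzymes of pyrimidine synthesis, had 178 and 304 CPM in control cells and 96.3 and 79.1 CPM in TRCs (−1.46 ± 0.29, FDR = 1.18e-05), and *Ctps*, which makes CTP, had 91.3 and 108 against 47.0 and 46.1 CPM (−1.10 ± 0.21, FDR = 4.45e-05). Of 33 mitosis genes, 3 (9.09%) were lower and 0 higher, a share near the 7.05% of all genes tested, with a median of −0.43. Among the 3 were *Kif20a* (−0.74 ± 0.24, FDR = 0.0227) and *Incenp* (−0.68 ± 0.20, FDR = 0.026). The log2 fold change was negative for 30 of the 33 mitosis genes, against 49.7% of all genes tested. Both TRC libraries were below both control libraries for 27, against 30.4%, and above both for 2, against 30.2%. Without control replicate 3, or without TRC replicate 3, 7 and 6 nucleotide synthesis genes and 0 mitosis genes were called lower, and without TRC replicate 1 and control replicate 1 in turn, 1 and 5 mitosis genes. The summed level of the mitosis genes in TRC replicates 1 and 3 was 85.2% and 82.6% of control replicate 1, against 72.3% and 71.9% for the 44 replication genes. Relative to control replicate 3 it was 71.0% and 68.8%, against 51.9% and 51.6% for the 44. The difference between the lists was not tested, since genes of a list share libraries and are not replicates.

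**Figure D5:**
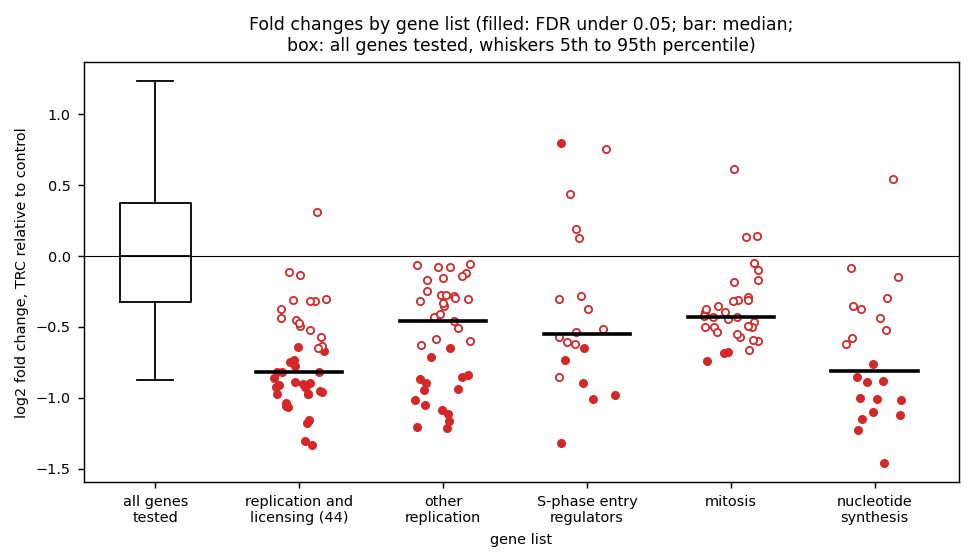
Log2 fold change (TRC relative to control) of the genes of 5 lists, with filled points for FDR under 0.05, a bar at the list's median, and a box for all genes tested (whiskers from the 5th to the 95th percentile). The medians are −0.81 for the 44 replication genes, −0.46 for other replication genes, −0.55 for S-phase entry regulators, −0.43 for mitosis genes and −0.81 for nucleotide synthesis genes.

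Counts on genes were between 35948295 and 43511554 per library, at which 3 counts, taken as the floor of detection, correspond to 0.0689 to 0.0835 CPM, a limit set by counting error alone. Reads aligned to several places made up 15.2% to 25.2% of the alignments and were counted on no gene. The melanocyte lineage list was expressed throughout, with 7 of 7 markers tested and a summed level of 15710 to 18910 CPM in control cells and 23970 to 26670 CPM in TRCs. Its part in the results on replication genes was not tested. Leukocyte markers summed to 2.04 to 4.97 CPM in control cells and 1.71 to 2.09 CPM in TRCs, with 5 of 8, *Ptprc* among them, at 0 in every library. Fibroblast and endothelial markers summed to 2.21 to 4.79 CPM and 2.14 to 4.33 CPM, with the endothelial genes *Cdh5* and *Kdr* at 0 in every library. Exons of 14 of the 44 genes overlap exons of a gene on the opposite strand, and the strand setting of the counting is not given in the sources used here.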

How the data were processed

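Stranded poly(A) RNA libraries were sequenced as single-end reads. Per the labels, the submitters' processing notes name CASAVA 1.8.2, Trimmomatic 0.35, TopHat2 2.1.0, Bowtie2 2.2.6, SAMtools 1.3, HTSeq and the build GRCm38; the strand setting and mode of the counting are not given in the sources used here. The files deposited by the authors hold raw counts for each Ensembl gene, without normalization, and the rows of HTSeq that name no gene were removed here (not unique alignments alone made up 15.2% to 25.2%). Symbols, exon lengths and positions came from GENCODE M21, in which 37607 of 39179 identifiers were found. Promoters came from the RefSeq table.

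Genes with at least 1 CPM in at least 2 of the 4 libraries were kept, which is 1 reading of the filter in the study's methods. The study's final table held a different number of genes, so its gene set was not reproduced exactly. As in those methods, TMM factors were computed, and control cells and TRCs were compared by edgeR's exact test with tagwise dispersions (edgeR 4.0.16, R 4.3.3). A prior count of 0.125 was used, with Benjamini-Hochberg adjustment over 11483 genes and FDR under 0.05 as the threshold. Standard errors came from DESeq2 1.42.0. Differences between libraries used log2(CPM + 0.5). The test was checked on simulated data.

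The 44 genes and all other lists were chosen with earlier results of these data known. Every gene of the 44 is named, with values in each library for those called lower. From the other replication genes and S-phase regulators up to 5 genes per direction, and from the mitosis and nucleotide lists up to 2, were named by smallest FDR. Subunits of ORC, of polymerases delta and epsilon and of RPA that were tested outside the 44 were named whatever their FDR. Ratios within complexes and the printed promoters were chosen after the values were seen. Alternatives were other filters, scalings, dispersions and tests, a replicate block, and each library left out in turn, where a lone library is assumed to vary like those of the other group. Plots used matplotlib 3.10.9 under Python 3.11.15.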

Additional observations from a re-analysis of the deposited data

Results flagged for a closer look

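The share of alignments that were not unique, which enters no comparison above, was 18.3% in TRC replicate 1 and 25.2% in TRC replicate 3, above the 15.2% and 17.1% of control replicates 1 and 3. It was looked at because it is a signal outside the gene counts that stood higher in both TRC libraries than in both control libraries. Its part in the levels of the replication genes was not tested.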

How the results depend on the processing

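Alternatives that kept all 4 libraries gave 440 values of single replication genes. They included a plain fold change between group means, which had no test. Its values for the 44 genes were therefore judged on direction alone. Of the 440 values, 410 kept their direction and, where a test was run, their side of the threshold. A further 28 lost the call, 2 gained it and 0 changed sign. Of 176 values with a library left out, 109 kept both, 61 lost the call, 4 gained it and 2 changed sign, both without control replicate 3, with log2 fold changes of 0.076 for *Rfc2* and 0.12 for *Rpa1*, neither of which was called in any setting; over the left-out libraries *Rfc2* ranged from −0.28 to 0.076 and *Rpa1* from −0.35 to 0.12. edgeR's quasi-likelihood test without the replicate block called 1054 genes in all, 17 of the 44 replication genes, 3 S-phase entry regulators and 0 mitosis genes. Mitosis genes called lower numbered 5 with library size only, 5 with dispersions shrunk toward a trend and 5 with DESeq2. Leaving out 1 library at a time, the count called lower ranged from 6 to 30 for the 44 genes, 3 to 15 for other replication genes, 0 to 9 for S-phase entry regulators, 0 to 5 for mitosis genes and 6 to 14 for nucleotide synthesis genes. For the 44 genes the median log2 fold change ranged from −0.94 to −0.55, the latter without control replicate 3, and all genes called from 773 to 1932, with 863 without control replicate 3. Each such fit has fewer libraries, and the cause of the lost calls was not tested further.

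The labels give both groups the numbers 1 and 3, but nothing says that a number marks a shared culture or day. The departures of libraries with the same number from the means of their groups had a correlation of r = 0.027 across 11483 genes and of r = 0.15 across the 44 replication genes. Genes are not independent, and each group holds only 2 numbers, so the correlation was not used to pair the samples, which were taken to share only a number. With the replicate block the quasi-likelihood test called 785 genes in all, 14 of the 44 replication genes, 6 other replication genes, 2 S-phase entry regulators and 0 mitosis genes.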
